A study of Mus musculus with 34 samples.

Results

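The cumulus cells (CCs) of C57BL/6J female mice fed a high-fat diet (HFD) for 4 weeks were compared with those of females kept on chow diet (CD) for the same time. The comparison holds 10 of the 34 libraries of the series, 5 of 4-week CD and 5 of 4-week HFD, taken by the diet and the time in their labels, and all genes of the count table entered it. The mice were 8 weeks old when the diets began, and by the labels 11% of the energy of CD and 58% of the energy of HFD came from fat, while the study's methods state slightly different shares. Mice of both groups were superovulated, and about 50 CCs from 1 cumulus-oocyte complex made each library. Libraries are called by the diet and the number in their labels, and values per library are given in the order CD1, CD2, CD7, CD8 and CD11, and HFD3, HFD4, HFD5, HFD13 and HFD14.

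CCs are granulosa cells that enclose the oocyte in the follicle and leave with it at ovulation. They pass nutrients and signals to the oocyte through gap junctions, respond to gonadotropins, and secrete a matrix rich in hyaluronan when the cumulus expands. They also make steroids, mainly progesterone after the ovulatory signal, and hold lipid stores that respond to the supply of fatty acids.

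Some genes of the secretory pathway (6 of 45 tested), the lysosome (3 of 49) and fatty acid oxidation (2 of 34) were higher in 4-week HFD, together with Fshr, the follicle-stimulating hormone receptor, and Akr1c18, which converts progesterone to a weaker steroid. Of the enzymes of histone and DNA methylation 7 of 52, Vegfa, the main angiogenic growth factor, and Lars2, the mitochondrial leucyl-tRNA synthetase, were lower. Without HFD5, these lists held 0 calls and Fshr and Akr1c18 lost theirs, while Vegfa and Lars2 kept theirs. All lists used here were chosen with earlier results of these data known. Their shares of calls therefore describe the lists and are no test of them. Of 11727 genes tested, 140 (1.19%) were called higher and 359 (3.06%) lower in HFD at an adjusted p under 0.05, from the quasi-likelihood test of edgeR, adjusted by the Benjamini-Hochberg method, the source of every adjusted p given here. At an unadjusted p under 0.05, 1279 genes (10.9%) were higher and 1566 (13.4%) lower. The values in CPM (a library's count of a gene scaled to the same library size in all) did not overlap between the groups for 369 genes higher in HFD (3.15%) and 423 lower (3.61%). The median log2 fold change over all genes tested was -0.01.

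The libraries differed in ways that touch these counts. Total counts ranged from 1363065 to 6608945 in CD and from 3945350 to 12641896 in HFD, with medians of 3814189 and 7113599, and HFD4 and HFD5 were shallower than CD1 and CD11. On the first principal component, which held 41.2% of the variance, CD11 lay at 21.0, beside the HFD libraries at 23.2 to 34.9 and away from the other CD libraries at -82.4 to -19.2. The second component (22.9%) set HFD3, HFD4 and HFD5 at -33.0 to -22.4 apart from HFD13 and HFD14 at 36.7 and 58.6. The summed level of 25 oocyte markers was 1256 CPM in HFD5, with 24 of them detected. It was from 26.6 to 96.9 CPM in the other 9 libraries, where 4 to 7 were detected. Of these sums Tle6 alone gave 24.2 CPM of the lowest, in HFD14, and 84 CPM of the highest, in CD8, beside 38.9 CPM in HFD5. Of 20 granulosa and cumulus markers, 17 to 20 were detected in each library, and they summed to between 2885 and 9106 CPM. Gja1 alone gave 999 CPM of the lowest sum, in CD2, and 7329 CPM of the highest, in HFD14. Theca and stroma markers reached at most 13.9 CPM and red blood cell markers 4.97 CPM. Oviduct epithelium markers ranged from 11.7 to 165 CPM in CD, highest in CD2, and from 18 to 80.8 CPM in HFD, while macrophage and neutrophil markers ranged from 169 to 780 CPM in CD and from 214 to 627 CPM in HFD. In RNA of pooled cells, fewer cells of a type and less RNA per cell cannot be told apart.

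**Figure D1:**
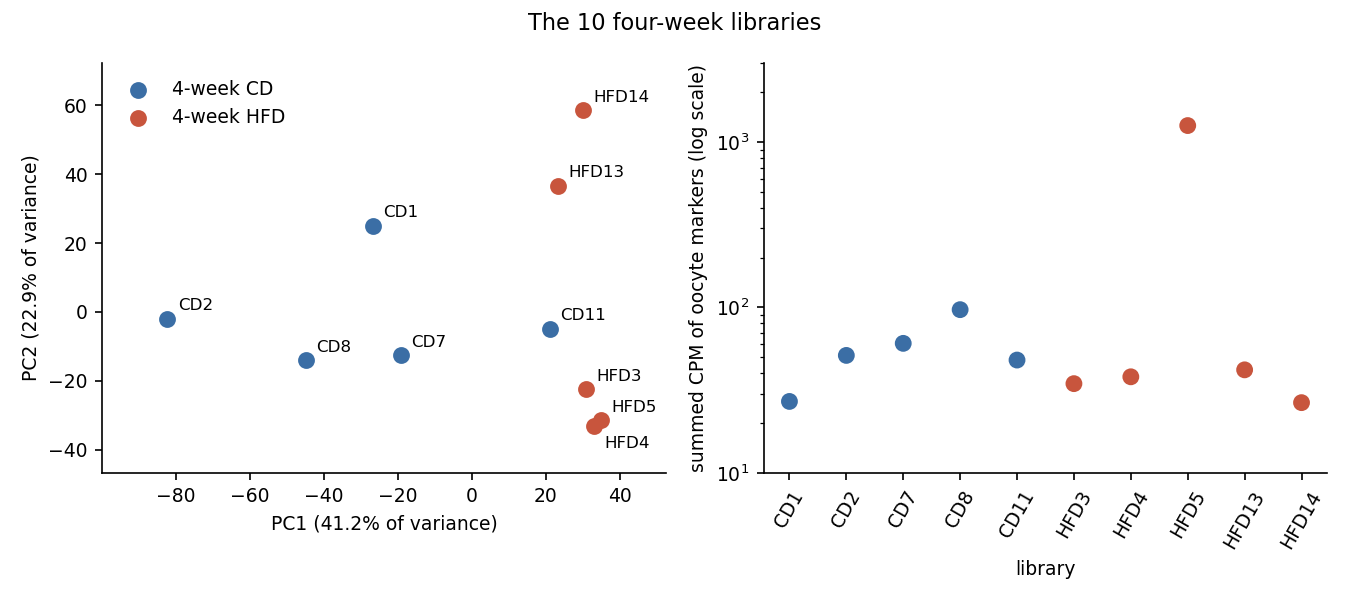
The left panel places each library on the first and second principal components of log2 CPM, coloured by diet, and the right panel gives the summed CPM of the oocyte markers in each library on a log axis. CD11 lies with the HFD libraries on the first component, and HFD5 alone, at 1256 CPM, stands above the other 9 libraries in oocyte markers.

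Without HFD5, the library with oocyte RNA, 22 genes of 11964 were called (0.184%), 1 higher and 21 lower. All 22 were among the 499 genes called with it, and each of the 499 kept its direction and an unadjusted p under 0.05. At an unadjusted p under 0.05, 1116 genes (9.33%) were then higher and 1341 (11.2%) lower. The number of calls moved as much with other libraries. It was 8 without CD8 (0 higher, where edgeR gave 931 higher at an unadjusted p under 0.05), 36 without HFD3, 92 without HFD4, 99 without CD2 and 108 without CD7. It was 158 without HFD14, 201 without HFD13, 369 without CD1 and 1700 without CD11, of which 751 were higher and 949 lower. CD11 was the CD library closest to the HFD group in 106 of the 140 genes called higher (75.7%) and in 300 of the 359 called lower (83.6%). Of the 60 called genes that the naming rule took, all kept their direction in the 10 fits that left out 1 library, 20 were called in at least 5 of these fits, and 3 (Phox2a, Lars2 and an entry of Atf7) in all 10. No call on any other named gene held in every one of these fits.

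**Figure D2:**
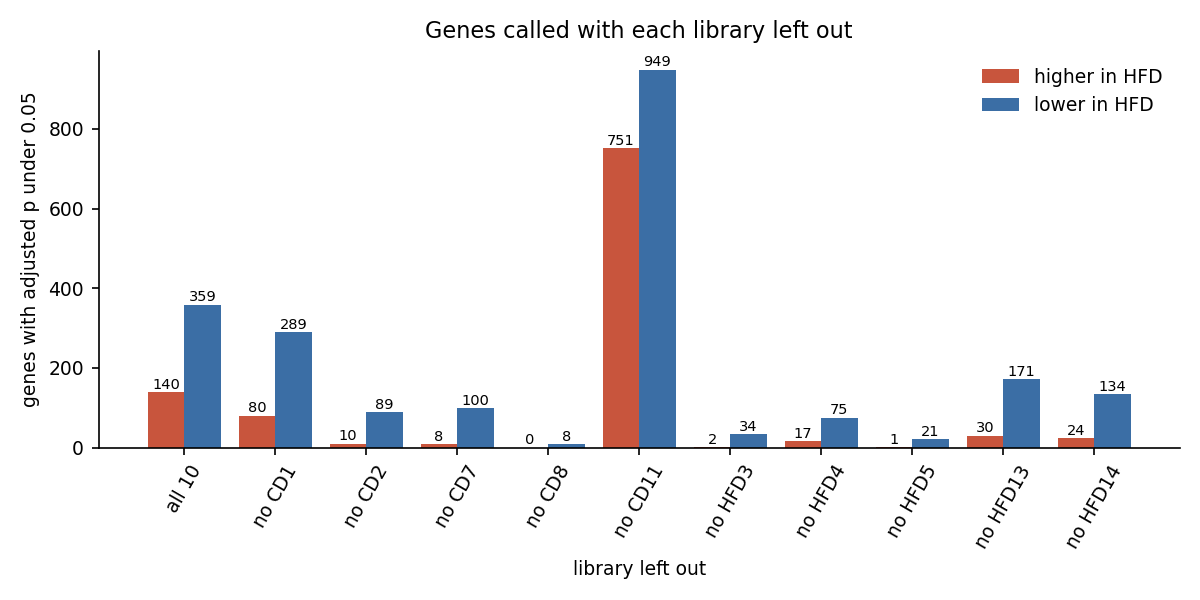
Bars give the number of genes with an adjusted p under 0.05 that were higher or lower in HFD, with all 10 libraries and with 1 library at a time left out. The counts ran from 0 higher and 8 lower without CD8 to 751 higher and 949 lower without CD11.

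The early secretory pathway held the most calls among the lists of rising genes. Proteins made for secretion enter the endoplasmic reticulum (ER) through the translocon, lose their signal peptide there, and move to and from the Golgi in vesicles with COPI or COPII coats. Of 45 genes of the secretory pathway and coats tested, 6 were called higher (13.3%, beside 1.19% of all genes) and 0 lower. The median log2 fold change was 0.39. At an unadjusted p under 0.05, 18 were higher and 1 lower, beside 10.9% and 13.4% of all genes. The groups did not overlap for 7 members, all higher in HFD, beside 3.15% of all genes without overlap and higher and 3.61% lower. The list was also the one with the most calls in 2 other tools. In DESeq2 14 members were higher and in limma-voom with sample quality weights 29, with 0 lower in either. Over all genes, DESeq2 called 520 of 13230 higher and 771 lower, and limma-voom 1939 of 11727 higher and 2113 lower. Of the 37 genes of the unfolded protein response, which restores folding capacity in the ER, 2 were called higher (5.41%), 0 lower, and the median was 0.31. At an unadjusted p under 0.05, 7 of its members were higher and 1 lower.

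Promoter windows are shown for 2 of the 8 genes called in these lists, because the unfolded protein response acts through short promoter elements that end in CCACG. They are 300 bases long, from 250 before to 50 after the gene's start, on GRCm38.p6 from RefSeq, written 5′ to 3′ on the gene's strand, with CCACG or its reverse complement in capitals. The motif was chosen after the values of the genes were seen.
Serp1, chr3:58525835-58526134, minus strand: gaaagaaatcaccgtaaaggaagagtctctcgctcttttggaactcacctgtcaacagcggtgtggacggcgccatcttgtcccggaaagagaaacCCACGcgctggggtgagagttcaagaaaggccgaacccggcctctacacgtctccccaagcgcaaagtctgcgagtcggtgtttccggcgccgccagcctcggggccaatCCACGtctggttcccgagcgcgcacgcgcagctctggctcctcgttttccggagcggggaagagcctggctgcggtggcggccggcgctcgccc
Dnajb9, chr12:44210019-44210318, minus strand: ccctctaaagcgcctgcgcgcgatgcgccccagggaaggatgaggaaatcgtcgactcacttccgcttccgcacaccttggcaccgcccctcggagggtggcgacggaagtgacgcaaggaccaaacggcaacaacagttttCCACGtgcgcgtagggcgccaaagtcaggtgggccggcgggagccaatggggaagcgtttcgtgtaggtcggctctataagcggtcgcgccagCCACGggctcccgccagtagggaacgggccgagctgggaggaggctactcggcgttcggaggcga
Of the 8 genes, 5 had a window, and all 5 held CCACG on either strand. CCACG was in the windows of 24 of 35 secretory pathway genes (68.6%), 25 of 31 unfolded protein response genes (80.6%), beside 4429 of the 8319 tested genes with a window (53.2%) and 35.5% of all 27025 genes with one. The longer TGACGTG, whose reverse complement begins with CACG and so can overlap CCACG, was in 6 of 35 (17.1%), 2 of 31 (6.45%), 3.32% and 2.22% of these. A match describes the letters of a window and is no evidence of binding.

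Ssr3 encodes a subunit of the translocon-associated protein complex, which helps proteins into the ER. It had 460.4, 138, 304, 189 and 492 CPM in the CD libraries and 803, 682, 594, 794 and 1178 CPM in the HFD libraries. All 5 HFD libraries were above all 5 CD libraries (from 316 ± 158 CPM in CD to 810.0 ± 223 CPM in HFD, SD, n = 5 in each group; log2 fold change 1.35, standard error 0.35, adjusted p = 0.0406). Serp1, an ER protein that protects newly made membrane proteins, had 329, 236, 203, 138 and 229.9 CPM in the CD libraries and 538, 352, 321, 483 and 721 CPM in the HFD libraries. HFD5 was just below CD1, so the groups overlapped by 1 library (log2 fold change 1.09, standard error 0.29, adjusted p = 0.046). Dnajb9, a co-chaperone of the ER induced by unfolded proteins, had 58.3, 15.6, 64.9, 33.8 and 68.8 CPM in the CD libraries and 126, 85.4, 89.6, 116 and 146 CPM in the HFD libraries. The groups did not overlap (log2 fold change 1.20, standard error 0.32, adjusted p = 0.0469).

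Of the coat proteins, 3 of the COPI coat were called. Copg2 had 47.7, 20.8, 36.7, 23.9 and 64.6 CPM in the CD libraries and 76, 86.7, 84, 91.1 and 102 CPM in the HFD libraries, and the lowest HFD library was above the highest CD library, CD11 (log2 fold change 1.16, standard error 0.28, adjusted p = 0.0346). Copb1 went from 198 ± 65.7 CPM in CD to 401 ± 47.6 CPM in HFD (log2 fold change 1.01, standard error 0.26, adjusted p = 0.0398) and Arcn1 from 167 ± 45.7 CPM in CD to 329.9 ± 86.9 CPM in HFD (log2 fold change 0.98, standard error 0.26, adjusted p = 0.0455), both without overlap. Tmed2, a cargo receptor of the same vesicles, went from 73 ± 19 CPM in CD to 134 ± 21.9 CPM in HFD (log2 fold change 0.87, standard error 0.23, adjusted p = 0.0442), and Spcs3, of the signal peptidase, from 114 ± 47.5 CPM in CD to 249 ± 75 CPM in HFD (log2 fold change 1.12, standard error 0.30, adjusted p = 0.0453). In both of these CD11 was above HFD libraries (HFD13 for Tmed2, and HFD4 and HFD5 for Spcs3). Called members of the secretory list numbered 5 without CD1, 12 without CD11 and 0 without any other library of the 10. Genes called higher over all genes numbered 80 without CD1, 751 without CD11 and 0 to 30 without each of the others. Without HFD5 its median was 0.38, and Ssr3 and Serp1 had adjusted p-values of 0.0671 and 0.0666.

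Fewer lysosomal genes were called, in the same direction. The lysosome breaks down proteins, lipids and organelles in an acid lumen. Of 49 genes of the lysosome and autophagy, 3 were called higher (6.12%, beside 1.19% of all genes) and 0 lower, and the median was 0.27. At an unadjusted p under 0.05, 14 were higher and 1 lower, beside 10.9% and 13.4% of all genes. Atp6v1h, of the proton pump that acidifies the lumen, had 88.2, 34.2, 62.8, 30.3 and 125 CPM in the CD libraries and 196, 159, 162, 191 and 283 CPM in the HFD libraries (log2 fold change 1.53, standard error 0.35, adjusted p = 0.0302). Scarb2, a receptor that carries a glucosidase to the lysosome, went from 20.4 ± 9.35 CPM in CD to 45.2 ± 6.53 CPM in HFD (log2 fold change 1.12, standard error 0.28, adjusted p = 0.0356). Neither gene overlapped between the groups. Asah1, which splits ceramide into sphingosine and a fatty acid in the lysosome, was among the 10 largest rises. It had 161, 92.9, 206, 99.4 and 401 CPM in the CD libraries and 678, 709, 628, 560.4 and 841 CPM in the HFD libraries, and CD11 was the highest CD library (log2 fold change 1.82, standard error 0.36, adjusted p = 0.0206). The lysosome list had 2 calls without CD1, 6 without CD11, 1 without HFD13 and 0 without each of the other 7. Genes called higher over all genes numbered 80, 751 and 30 in the first 3 of these fits and 0 to 24 in the other 7. Asah1 lost its call without CD8, HFD3 or HFD5 (adjusted p = 0.0546 without HFD5).

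Genes that burn fatty acids gave 2 calls, both higher in HFD. Those that store or make lipids gave 1, which was lower and left the droplet list near the share of all genes. Of 34 genes of fatty acid oxidation tested, 2 were called higher (5.88%, beside 1.19% of all genes) and 0 lower, and the median was 0.37. At an unadjusted p under 0.05, 8 were higher and 1 lower, beside 10.9% and 13.4% of all genes. Hadhb, the beta subunit of the mitochondrial trifunctional protein, had 69.2, 20.1, 63.7, 47.2 and 119.5 CPM in the CD libraries and 174, 176, 165, 121 and 173 CPM in the HFD libraries. Every HFD library was above every CD library, with HFD13 and CD11 nearly level (log2 fold change 1.32, standard error 0.34, adjusted p = 0.0409). Etfdh, which passes electrons from fatty acid oxidation to the respiratory chain, went from 44.2 ± 23.4 CPM in CD to 108 ± 33.1 CPM in HFD without overlap (log2 fold change 1.26, standard error 0.34, adjusted p = 0.049). Of 32 genes of lipid droplets and triglycerides, 0 were called higher and 1 lower (3.12%, beside 3.06% of all genes). At an unadjusted p under 0.05, 2 were higher and 3 lower, and the median was 0.14. The 1 was Agpat1, which makes phosphatidic acid, meets Egfl8 on the other strand over 101 bases at its 3′ end, and went from 61.5 ± 15.8 CPM in CD to 32 ± 3.62 CPM in HFD (log2 fold change -0.93, standard error 0.22, adjusted p = 0.0328). Egfl8 was called lower as well (log2 fold change -2.39, adjusted p = 0.0398). Of 23 genes of fatty acid synthesis and desaturation, 0 were called in edgeR, 3 were higher and 2 lower at an unadjusted p under 0.05, and the median was 0.10. DESeq2 called 3 higher and 0 lower, beside 520 and 771 of all 13230 genes. In limma-voom 8 were called higher and 3 lower, beside 1939 and 2113 of all 11727 genes. The lowest p was that of Ptplb (log2 fold change 1.01, standard error 0.30, adjusted p = 0.0693). Hadhb and Etfdh kept their calls only without CD11 among the 10 fits that left out 1 library, and without HFD5 their adjusted p-values were 0.0797 and 0.0812. For Agpat1 it was 0.0671, and it was called without CD1 or CD11 only.

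Sterol and steroid genes gave few calls. Of 20 genes of steroid hormone synthesis tested, 1 was called higher (5%, beside 1.19% of all genes) and 0 lower. At an unadjusted p under 0.05, 5 were higher and 2 lower, beside 10.9% and 13.4% of all genes, and the median was 0.31. Akr1c18, the 20-alpha-hydroxysteroid dehydrogenase that inactivates progesterone, had 1475, 423, 1313, 513 and 1150.0 CPM in the CD libraries and 2025, 2923, 2780.0, 2820.0 and 4887 CPM in the HFD libraries. The groups did not overlap, and HFD14 was the highest (log2 fold change 1.66, standard error 0.38, adjusted p = 0.029). Akr1c14, a 3-alpha-hydroxysteroid dehydrogenase of the same gene cluster on chromosome 13, had 249, 58.7, 133, 170.0 and 236 CPM in the CD libraries and 604, 439.9, 338, 461 and 1110.0 CPM in the HFD libraries, again without overlap (log2 fold change 1.80, standard error 0.39, adjusted p = 0.0275). Akr1c genes are close in sequence, so that reads may be shared between them. Cyp11a1 and Star, which start steroid synthesis by cleaving and carrying cholesterol, had log2 fold changes of 0.44 (adjusted p = 0.375) and 0.08 (adjusted p = 0.879). They were chosen after their values were seen. Of 27 genes of cholesterol synthesis and uptake, 0 were called higher and 1 lower (3.7%, near the 3.06% of all genes). At an unadjusted p under 0.05, 4 were higher and 2 lower. The median of that list was 0.13, and 15 of its members had positive log2 fold changes. Akr1c18 kept its call without CD1 or CD11 only, and Akr1c14 lost it without CD2, CD7, CD8, HFD3, HFD5 or HFD14. Without HFD5 the adjusted p was 0.0582 for Akr1c18 and 0.0546 for Akr1c14.

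The largest rises included a receptor, transporters and enzymes of lipid mediators. The 10 largest were taken from 101 genes called higher that had a mean of at least 10 CPM, did not overlap between the groups, and kept direction and an unadjusted p under 0.05 without HFD5. Abca6, a lipid transporter of the ABC family (chromosome 11, 110176820 to 110251776, minus strand), had the largest, with 4.72, 2.97, 5.45, 5.47 and 10.2 CPM in the CD libraries and 23, 15.4, 18, 32.3 and 51.3 CPM in the HFD libraries (log2 fold change 2.23, standard error 0.38, adjusted p = 0.0161). It was the only gene called higher without HFD5 (adjusted p = 0.0396), and it lost its call without CD8. Fshr (chromosome 17, 88985170 to 89200612, minus strand) marks granulosa cells and binds follicle-stimulating hormone. It had 7.98, 0.743, 4.03, 5.47 and 14.8 CPM in the CD libraries and 31.7, 27, 25.6, 17.7 and 28.9 CPM in the HFD libraries. The lowest HFD library, HFD13, was just above CD11, the highest CD library (log2 fold change 1.87, standard error 0.42, adjusted p = 0.0281). Fshr lost its call without CD7, CD8, HFD3, HFD4, HFD5 (adjusted p = 0.0582) or HFD14.

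Hpgd, which inactivates prostaglandins, went from 4.29 ± 1.39 CPM in CD to 16.3 ± 7.93 CPM in HFD (log2 fold change 1.87, standard error 0.39, adjusted p = 0.0216). Rab5a, the small GTPase of early endosomes, had 29.6, 11.9, 36.2, 27.8 and 88.2 CPM in the CD libraries and 131, 115, 116, 131 and 213 CPM in the HFD libraries (log2 fold change 1.84, standard error 0.39, adjusted p = 0.0253), and Snx7, a sorting nexin, went from 8.19 ± 6.43 CPM in CD to 28.4 ± 6.81 CPM in HFD (log2 fold change 1.68, standard error 0.43, adjusted p = 0.0398). Slc25a16, a mitochondrial carrier, went from 10.6 ± 4.38 CPM in CD to 34 ± 8.03 CPM in HFD (log2 fold change 1.62, standard error 0.30, adjusted p = 0.0189). Among abundant genes, Maged2 went from 290.5 ± 123 CPM in CD to 642 ± 123 CPM in HFD (log2 fold change 1.14, standard error 0.30, adjusted p = 0.0452). Snx7 and Maged2 were called only without CD11 when 1 library was left out. Hpgd lost its call without CD2, CD8, HFD3 or HFD5, Rab5a without CD7, CD8, HFD3, HFD5 or HFD14, and Slc25a16 without CD8, HFD3 or HFD5.

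**Figure D3:**
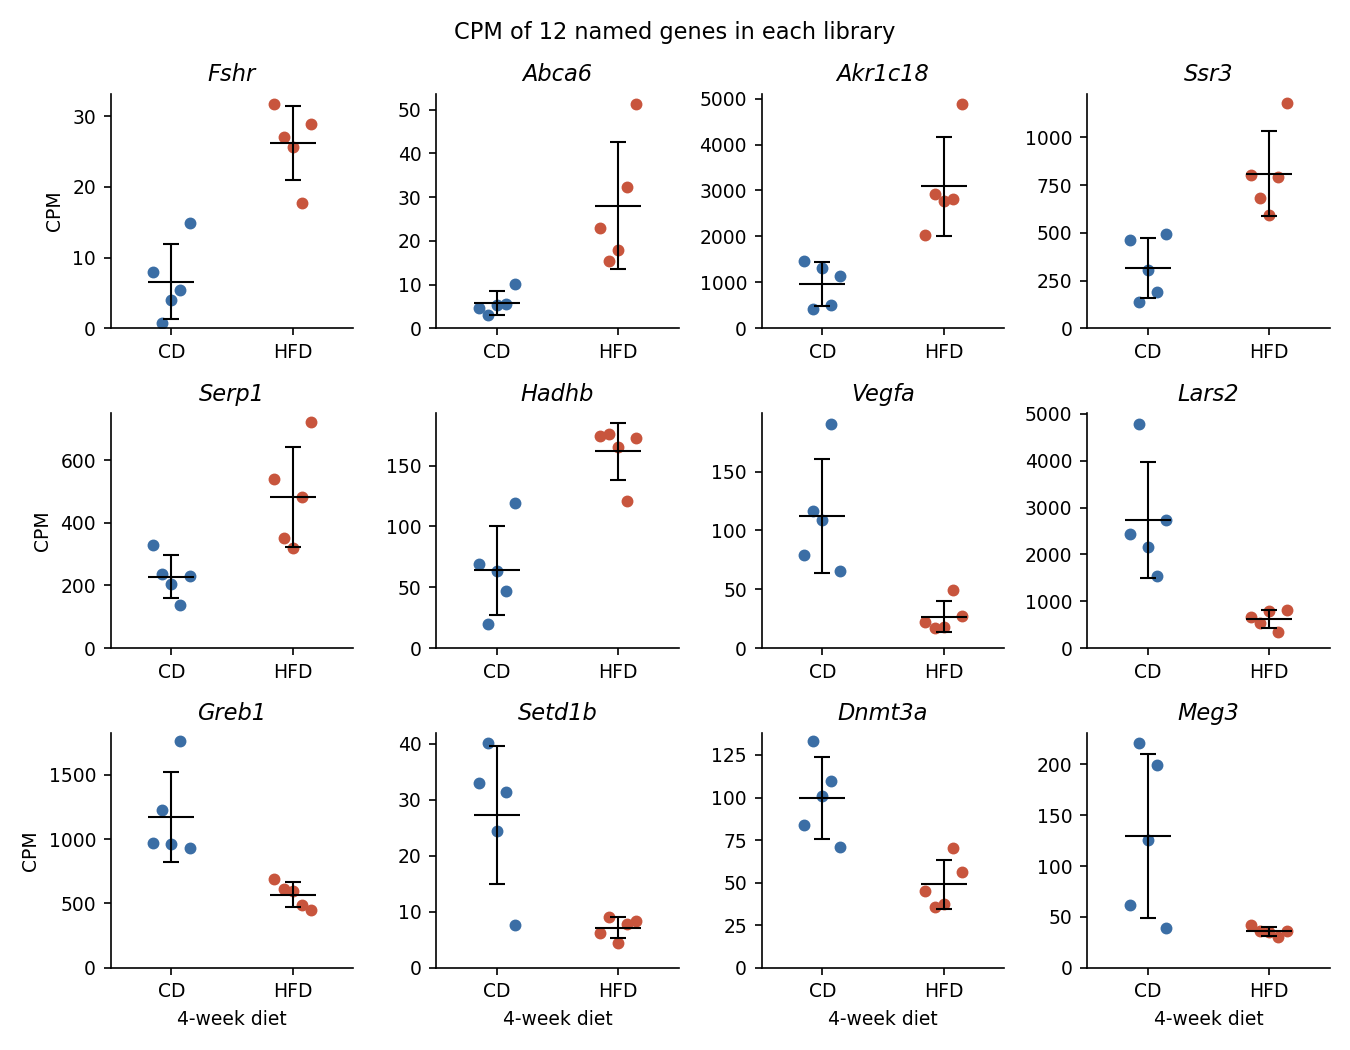
CPM of 12 named genes in each 4-week library, with CD in blue and HFD in red, the horizontal bar at the mean and the error bars giving the SD (n = 5 per group). The groups do not overlap for 9 of the genes, and for Serp1, Setd1b and Meg3 they touch through 1 CD library.

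The largest falls were steeper than the largest rises. They were taken from 155 genes by the same rule. Phox2a, a homeobox transcription factor best known from neurons, had 18.6, 46.1, 22.3, 47.2 and 13.6 CPM in the CD libraries and 4.12, 3.34, 3.20, 6.62 and 3.19 CPM in the HFD libraries. The groups did not overlap, and CD11 was the lowest CD library (log2 fold change -2.79, standard error 0.39, adjusted p = 0.00785). Its entry shares 534 bases with Inppl1 on the other strand (log2 fold change -0.16). Acrbp, a protein of the sperm acrosome, went from 22.4 ± 12.9 CPM in CD to 3.33 ± 1.24 CPM in HFD (log2 fold change -2.67, standard error 0.43, adjusted p = 0.013). The Acrbp entry shares 1811 bases with Ing4 on the same strand (137 CPM in CD, log2 fold change -0.43). Lars2 (chromosome 9, 123366940 to 123462664, plus strand) charges leucine to its mitochondrial tRNA and was the most abundant of the 155. The source of the reads counted in this entry was not tested. It had 2430.0, 4790.0, 2149, 1533 and 2737 CPM in the CD libraries and 654, 539, 782, 336 and 820.2 CPM in the HFD libraries, and the groups were wide apart (log2 fold change -2.12, standard error 0.35, adjusted p = 0.013). Vegfa (chromosome 17, 46016993 to 46032377, minus strand) had 79.4, 117, 109, 191 and 65.8 CPM in the CD libraries and 22.1, 17.2, 18.2, 49 and 26.9 CPM in the HFD libraries. Here HFD13 was the highest of its group and CD11 the lowest (log2 fold change -2.06, standard error 0.34, adjusted p = 0.0137). Phox2a and Lars2 were called in all fits that left out 1 library, while Acrbp and Vegfa lost the call without CD8 only. Without HFD5 the log2 fold changes were -2.71, -2.62, -2.21 and -1.94.

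Among the other large falls, Eif4ebp3, a repressor of cap-dependent translation whose entry lies within that of Ankhd1, went from 19.9 ± 12.2 CPM in CD to 3.81 ± 1.03 CPM in HFD (log2 fold change -2.32, standard error 0.44, adjusted p = 0.0189) and Pabpc4, a poly(A)-binding protein, from 72.2 ± 46.9 CPM in CD to 18.3 ± 3.08 CPM in HFD (log2 fold change -1.96, standard error 0.36, adjusted p = 0.0185). Snap91, a clathrin assembly protein, went from 18.8 ± 12.8 CPM in CD to 4.03 ± 1.11 CPM in HFD (log2 fold change -2.17, standard error 0.42, adjusted p = 0.0191). Mbd6, a protein with a methyl-CpG-binding domain, went from 43.9 ± 22.6 CPM in CD to 9.85 ± 2.27 CPM in HFD (log2 fold change -2.14, standard error 0.38, adjusted p = 0.0168) and Zfhx2, a zinc finger homeobox factor, from 24.5 ± 13.7 CPM in CD to 5.53 ± 3.49 CPM in HFD (log2 fold change -2.06, standard error 0.46, adjusted p = 0.0276). Of abundant genes, Greb1, an estrogen-regulated gene, had 972, 1223, 959, 1758 and 927 CPM in the CD libraries and 689, 610.2, 599, 492 and 452 CPM in the HFD libraries (log2 fold change -1.04, standard error 0.26, adjusted p = 0.0395). Zbed6, a transcription factor derived from a transposon and lying within Zc3h11a (whose log2 fold change was -0.82), went from 398 ± 80.6 CPM in CD to 202 ± 29.4 CPM in HFD (log2 fold change -0.98, standard error 0.23, adjusted p = 0.0327), and Ddx17, an RNA helicase, from 403 ± 151 CPM in CD to 135 ± 50.8 CPM in HFD (log2 fold change -1.58, standard error 0.32, adjusted p = 0.0212). Mbd6 lost its call without CD8, and Eif4ebp3, Pabpc4 and Snap91 without CD8, HFD3 or HFD5. Zfhx2 lost it without CD2, CD7, CD8, HFD3, HFD4 or HFD5, and Ddx17 without CD2, CD8, HFD3, HFD4 or HFD5. Greb1 and Zbed6 were called without CD1 or CD11 only.

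Enzymes that write and erase marks on histones and DNA were the list with the most members called lower. Methyl groups on histone tails and on cytosines mark active or silent chromatin. Of 52 genes of the polycomb, histone and DNA methylation enzymes tested, 7 were called lower (13.5%, beside 3.06% of all genes) and 0 higher. The median was -0.25. At an unadjusted p under 0.05, 13 were lower and 2 higher, beside 13.4% and 10.9% of all genes. Setd1b and Mll1 encode methyltransferases of histone H3 lysine marks of active genes. Setd1b had 33, 40.1, 24.4, 31.3 and 7.73 CPM in the CD libraries and 6.19, 9.00, 4.43, 7.85 and 8.41 CPM in the HFD libraries, where CD11 lay among the HFD libraries and the other CD libraries were far above them (log2 fold change -1.90, standard error 0.37, adjusted p = 0.0197). Mll1 went from 123 ± 30.1 CPM in CD to 58.1 ± 11 CPM in HFD (log2 fold change -1.07, standard error 0.23, adjusted p = 0.0267). Ehmt2, which writes a repressive histone mark, went from 92.3 ± 34.5 CPM in CD to 39.7 ± 7.46 CPM in HFD (log2 fold change -1.21, standard error 0.28, adjusted p = 0.029), and Dot1l, which methylates the histone H3 core, from 89.1 ± 41.4 CPM in CD to 37.8 ± 5.57 CPM in HFD (log2 fold change -1.24, standard error 0.29, adjusted p = 0.0327). Dnmt3a, a de novo DNA methyltransferase, had 84.2, 133, 101, 109.8 and 70.8 CPM in the CD libraries and 45.2, 35.5, 37.4, 70.7 and 56.2 CPM in the HFD libraries. HFD13 was just below CD11, so the groups did not overlap (log2 fold change -1.01, standard error 0.25, adjusted p = 0.0359). Kdm6b, which removes a polycomb mark, went from 105 ± 42.9 CPM in CD to 51.5 ± 3.98 CPM in HFD (log2 fold change -1.02, standard error 0.26, adjusted p = 0.0384). Aebp2, a cofactor of the polycomb complex, was the seventh member called (log2 fold change -0.85, standard error 0.22, adjusted p = 0.0424). The count of falls was 6 without CD1, 10 without CD11, 4 without HFD13 and 2 without HFD14. It was 1 without CD7 or HFD4, and 0 without CD2, CD8, HFD3 or HFD5. Falls over all genes numbered 289, 949, 171 and 134 without CD1, CD11, HFD13 and HFD14, and 8 to 100 without each of the others. Without HFD5 the median was -0.18.

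Nuclear long noncoding RNAs and immediate early genes had low levels in HFD3, HFD4 and HFD5 more than in HFD13 and HFD14. The mean log2(CPM + 1) of the noncoding RNAs, centred on the 10 libraries, was between -0.63 and -0.52 in the first 3 and 0.08 and 0.27 in HFD13 and HFD14, beside -0.22 in CD11 and 0.12 to 0.86 in the other CD libraries. Of 8 nuclear long noncoding RNAs tested, 2 were called lower (25%, beside 3.06% of all genes) and 0 higher. At an unadjusted p under 0.05, 4 were lower and 1 higher, and the median was -0.70. Meg3, an imprinted noncoding RNA, had 61.9, 221, 125, 199.8 and 39.1 CPM in the CD libraries and 42.3, 36.3, 35, 30.3 and 36.6 CPM in the HFD libraries, with CD11 inside the HFD range (log2 fold change -1.83, standard error 0.39, adjusted p = 0.0251). Snhg11 went from 18 ± 10.2 CPM in CD to 7.24 ± 0.889 CPM in HFD (log2 fold change -1.29, standard error 0.35, adjusted p = 0.0486). Neat1, the scaffold of paraspeckles, had 1196, 3631, 2318, 4129 and 2011 CPM in the CD libraries and 1138, 1337, 1243, 1684 and 1445 CPM in the HFD libraries and missed the threshold (log2 fold change -0.96, standard error 0.32, adjusted p = 0.0948). Immediate early genes are switched on within minutes of a stimulus, cell handling included. Of 29 tested, 2 were called lower (6.9%, beside 3.06% of all genes) and 0 higher, and the median was -0.53. At an unadjusted p under 0.05, 12 were lower and 1 higher, beside 13.4% and 10.9% of all genes. Trib1 had 37.6, 46.1, 39.8, 35.3 and 19.9 CPM in the CD libraries and 12.2, 11.3, 18.7, 17.5 and 18.4 CPM in the HFD libraries without overlap (log2 fold change -1.18, standard error 0.27, adjusted p = 0.029), and Ier5 went from 26.1 ± 7.89 CPM in CD to 12.5 ± 3.02 CPM in HFD (log2 fold change -1.05, standard error 0.28, adjusted p = 0.0452). Egr1 had 590.0, 367, 227, 296 and 174 CPM in the CD libraries and 103, 94.9, 95.5, 250.3 and 185 CPM in the HFD libraries, with HFD13 and HFD14 above CD11 (log2 fold change -1.18, standard error 0.36, adjusted p = 0.0741), and Fos had a log2 fold change of -0.92 (adjusted p = 0.174). Neat1, Egr1 and Fos were named after their values were seen. Meg3 lost its call without CD2, CD7, CD8, HFD3, HFD4 or HFD5, Snhg11 without all but CD1 and CD11, Trib1 without all but CD1, CD11 and HFD14, and Ier5 without all but CD11.

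**Figure D4:**
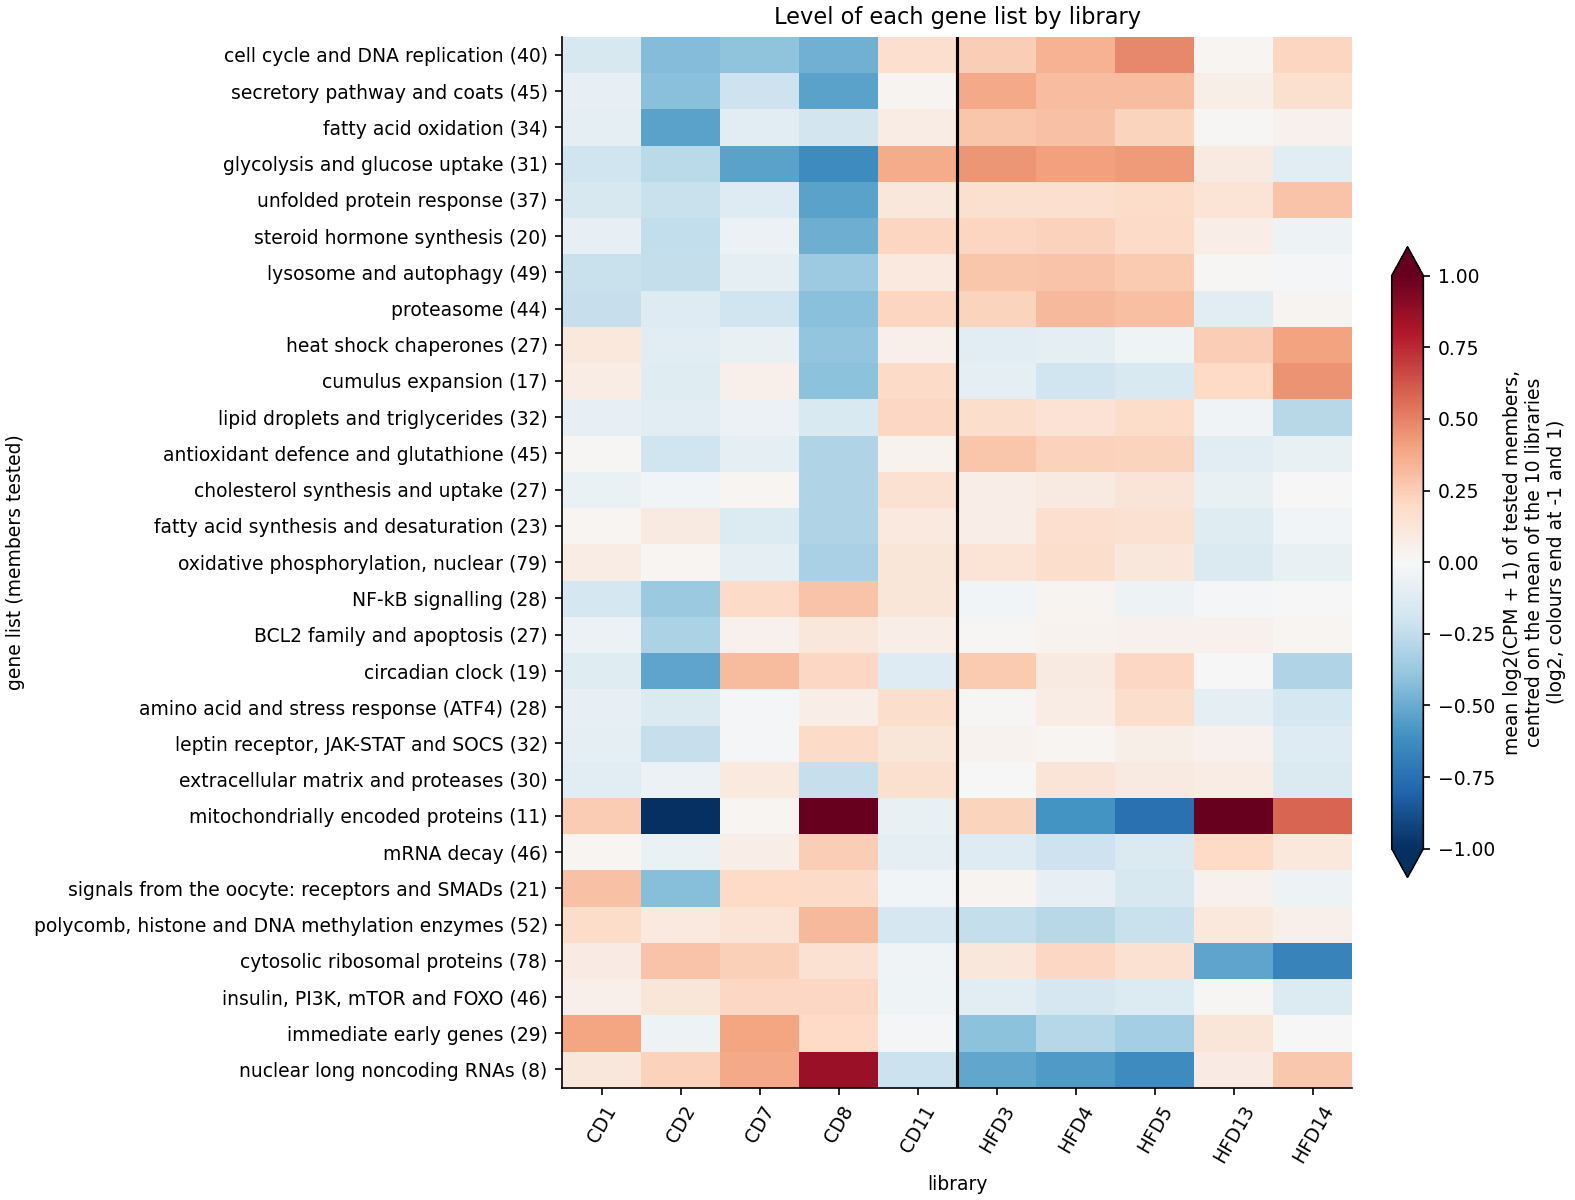
Each row is a gene list with its number of tested members, and each column a 4-week library, coloured by the mean log2(CPM + 1) of the members centred on the mean of the 10 libraries. Rows are in the order of the median log2 fold change, from the cell cycle list at 0.41 to the nuclear long noncoding RNAs at -0.70, and CD11 takes the colour of the HFD libraries in many rows.

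Where 1 gene had several entries, those nearer the 3′ end were the lower ones in HFD. The table splits some genes into more than 1 entry, and 14 symbols had 2 tested entries on 1 strand. The entry nearer the 3′ end fell more than the one nearer the 5′ end in 13 of the 14, with a median difference of -1.43 in the log2 fold change. Of the 3′ entries, 7 were called lower and 0 higher, whereas 0 of the 5′ entries were called. The 3′ entry of Atf7, a transcription factor (chromosome 15, 102528636 to 102529025, minus strand), fell from 24.3, 41.6, 26.8, 33.8 and 11.1 CPM in the CD libraries to 5.30, 4.63, 4.19, 4.49 and 5.05 CPM in the HFD libraries (log2 fold change -2.50, adjusted p = 0.00785). Its 5′ entry (102536654 to 102625421) had a log2 fold change of 0.42 (adjusted p = 0.478). The median log2 ratio of the 3′ to the 5′ entry over the 14 pairs was 1.11, 1.05, 0.67, 1.02 and -0.17 in CD and -0.60, -0.71, -0.51, -0.73 and -0.07 in HFD. The means differed by -1.26 (two-sided exact permutation test over the libraries, p = 0.0159, where the smallest p possible is 0.00794), and CD11 lay among the HFD libraries. The pattern was noticed in these data before it was tested.

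The genes called also differed from the rest in base composition. The median GC content of the longest transcript was 49.4% over all genes tested, 43.8% in the genes called higher and 54.5% in those called lower, with median lengths of 3400, 3183 and 4391 bases. With an offset for GC content and length in each library, 127 genes were called higher and 333 lower, of which 287 were among the 499. The secretory list then had 1 call, the lysosome list 3, fatty acid oxidation 0 and the chromatin list 4, with medians of 0.40, 0.32, 0.26 and -0.14. The part of read position in the calls above was not tested.

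**Figure D5:**
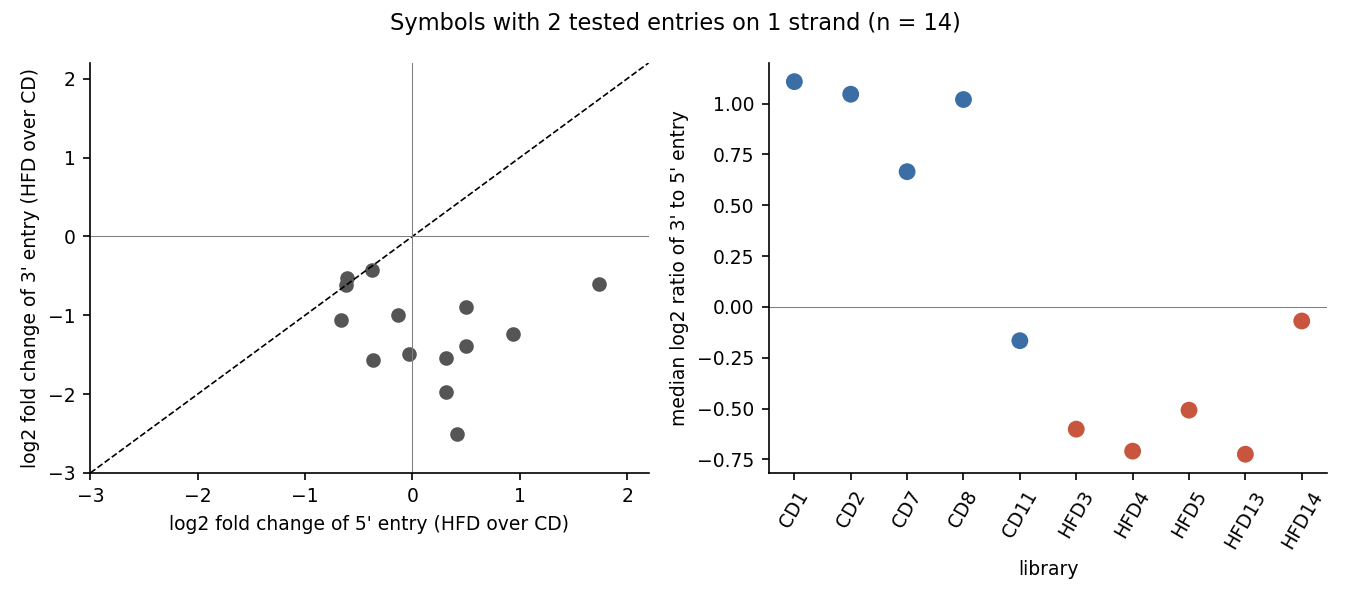
The left panel plots, for the 14 symbols with 2 entries on 1 strand, the log2 fold change of the 3′ entry against that of the 5′ entry, with a dashed line where they are equal. The right panel gives the median log2 ratio of 3′ to 5′ entry in each library, which lies between 0.67 and 1.11 in CD1, CD2, CD7 and CD8 and below 0 in CD11 and all HFD libraries.

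The leptin receptor and NF-kB lists gave single calls, and the insulin list none. The series studies leptin beside diet, and leptin acts through its receptor on JAK and STAT proteins, with SOCS proteins as feedback. Of 32 genes of the leptin receptor, JAK-STAT and SOCS list tested, 1 was called higher and 1 lower, and the median was -0.04. Each call was 3.12% of the list, beside 1.19% of all genes called higher and 3.06% lower. Socs5, a suppressor of cytokine signaling, had 64.1, 59.5, 37.4, 51.2 and 27.8 CPM in the CD libraries and 12.8, 16.7, 16.7, 23.2 and 23.6 CPM in the HFD libraries without overlap (log2 fold change -1.35, standard error 0.28, adjusted p = 0.0212). Leprot, which shares a promoter with the leptin receptor and limits its presence at the cell surface, had 63.5, 47.6, 77.5, 59.6 and 108 CPM in the CD libraries and 154, 168, 149, 105 and 119 CPM in the HFD libraries, where CD11 was above HFD13 (log2 fold change 0.95, standard error 0.25, adjusted p = 0.0425). Lepr had 47.2, 50.5, 12.3, 18.9 and 31.1 CPM in the CD libraries and 26.1, 19.3, 16.2, 29.3 and 29.5 CPM in the HFD libraries, with overlapping groups (log2 fold change -0.39, standard error 0.35, adjusted p = 0.495). Socs3, the feedback inhibitor of leptin signaling, had 2.77, 0.743, 7.34, 14.4 and 14.2 CPM in the CD libraries and 12.1, 9.52, 9.85, 9.42 and 6.55 CPM in the HFD libraries, and its HFD values lay within those of CD (log2 fold change 0.23, standard error 0.49, adjusted p = 0.794). Lepr and Socs3 were named after their values were seen. Of 46 genes of insulin, PI3K, mTOR and FOXO signaling, 0 were called in edgeR, and the median was -0.29. At an unadjusted p under 0.05, 2 were higher and 9 lower, beside 10.9% and 13.4% of all genes. DESeq2 called 0 higher and 2 lower, beside 520 and 771 of all 13230 genes. In limma-voom 1 was called higher and 15 lower, beside 1939 and 2113 of all 11727 genes. Insr, the insulin receptor, had 152, 83.2, 118, 119 and 106 CPM in the CD libraries and 44.2, 49.6, 46.8, 95.4 and 85 CPM in the HFD libraries (log2 fold change -0.85, standard error 0.27, adjusted p = 0.0775), and Tsc1, a brake on mTOR, a log2 fold change of -0.90 (adjusted p = 0.0775). Among 28 genes of NF-kB signaling, 1 was called lower (3.57%, near the share of all genes) and 0 higher, and the median was 0.07. This was Traf3, a negative regulator of the noncanonical pathway, with 57.8, 59.5, 36, 44.7 and 19.2 CPM in the CD libraries and 13.7, 10.8, 11.8, 19.9 and 16.7 CPM in the HFD libraries (log2 fold change -1.55, standard error 0.31, adjusted p = 0.0197). Leprot was called only without CD11 when 1 library was left out. Socs5 lost its call without CD2, CD8, HFD3, HFD4 or HFD5, and Traf3 without CD8, HFD3, HFD4 or HFD5. Without HFD5 the median of the NF-kB list was -0.12.

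Genes specific to cumulus function gave few calls. Of 17 genes of cumulus expansion tested, 0 were called in edgeR, 0 had an unadjusted p under 0.05, and the median was 0.17. DESeq2 called 0, and limma-voom called 2 higher and 3 lower, beside 1939 and 2113 of all 11727 genes in limma-voom. Tnfaip6, which crosslinks the hyaluronan matrix, had 515, 290.5, 467, 449 and 546 CPM in the CD libraries and 559, 547, 639.9, 569.9 and 683 CPM in the HFD libraries (log2 fold change 0.40, standard error 0.24, adjusted p = 0.304). Ptgs2, which makes prostaglandins, had 155, 230.4, 272, 116 and 439.9 CPM in the CD libraries and 144, 139, 156, 413 and 515 CPM in the HFD libraries, with the highest values in CD11, HFD13 and HFD14 (log2 fold change 0.17, standard error 0.43, adjusted p = 0.829). These 2 were named after their values were seen, and the lowest p was that of Hapln1, a link protein of the same matrix (log2 fold change 0.84, standard error 0.42, adjusted p = 0.228). Of 21 receptors and SMADs that receive signals from the oocyte, 0 were called in edgeR or DESeq2, 1 was higher and 2 lower at an unadjusted p under 0.05, and limma-voom called 1 higher and 6 lower, with a median of -0.14. Smad6, an inhibitory SMAD, went from 3.74 ± 1.95 CPM in CD to 1.51 ± 0.741 CPM in HFD (log2 fold change -1.27, standard error 0.51, adjusted p = 0.14). Of 17 granulosa and cumulus markers tested, 1 was called higher and 1 lower (5.88% each, beside 1.19% and 3.06% of all genes). Fshr was the higher one, and Npr2, the receptor that keeps the oocyte in meiotic arrest, the lower one (log2 fold change -1.06, standard error 0.28, adjusted p = 0.0424). Neither was called without HFD5 (adjusted p = 0.0859 for Npr2), and Npr2 was named after its values were seen.

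Genes of energy metabolism, protein turnover and the cell cycle gave single calls or none. Over all genes tested, 1.19% were called higher, and 10.9% were higher and 13.4% lower at an unadjusted p under 0.05. Of 31 genes of glycolysis and glucose uptake, 1 was called higher (3.23%) and 0 lower, 7 were higher and 1 lower at an unadjusted p under 0.05, and the median was 0.32. Txnip, which restrains glucose uptake, had 56, 11.9, 24.9, 48.7 and 62.3 CPM in the CD libraries and 196, 127, 173, 62.9 and 59.7 CPM in the HFD libraries, with HFD14 below CD11 (log2 fold change 1.58, standard error 0.42, adjusted p = 0.0452). Gm15441 on the other strand spans Txnip and was higher as well (log2 fold change 2.54, standard error 0.52, adjusted p = 0.0212), and without strand the reads of such pairs cannot be told apart. Of 79 nuclear genes of oxidative phosphorylation, 1 was called higher (1.27%, near the share of all genes) and 0 lower. At an unadjusted p under 0.05, 7 were higher and 9 lower, and the median was 0.09. The 1 called was Uqcrc2, a core subunit of complex III, which went from 106 ± 38.2 CPM in CD to 219.9 ± 33.7 CPM in HFD (log2 fold change 1.05, standard error 0.26, adjusted p = 0.0369). Of 44 proteasome genes, 0 were called in edgeR, 9 were higher and 1 lower at an unadjusted p under 0.05, and the median was 0.26. DESeq2 called 3 higher and 0 lower, beside 520 and 771 of all 13230 genes. In limma-voom 23 were called higher and 1 lower, beside 1939 and 2113 of all 11727 genes. Of 40 genes of the cell cycle and DNA replication, 1 was called higher (2.5%) and 0 lower, 11 were higher and 1 lower at an unadjusted p under 0.05, and the median was 0.41. Mcm4, of the replicative helicase, had 7.81, 4.46, 9.71, 4.97 and 16.5 CPM in the CD libraries and 21.2, 20.6, 30.5, 21 and 37.6 CPM in the HFD libraries without overlap (log2 fold change 1.52, standard error 0.34, adjusted p = 0.0281). Hspa4, a chaperone of the HSP110 family, was the only call among 27 heat shock chaperones (3.7%), from 149.9 ± 19.6 CPM in CD to 268 ± 32.6 CPM in HFD (log2 fold change 0.84, standard error 0.21, adjusted p = 0.0395). Uqcrc2 kept its call only without CD11, Txnip without CD11 or HFD14, Hspa4 without CD1 or CD11, and Mcm4 without CD11 or HFD13.

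Ribosomal protein genes split the HFD group. Of 78 cytosolic ribosomal protein genes, 1 was called lower (1.28%, beside 3.06% of all genes) and 0 higher, and the median was -0.28. At an unadjusted p under 0.05, 20 were lower and 2 higher, beside 13.4% and 10.9% of all genes. The mean log2(CPM + 1) of the list, centred on the 10 libraries, was -0.53 and -0.67 in HFD13 and HFD14, whereas it was 0.12, 0.21 and 0.15 in HFD3, HFD4 and HFD5 and between -0.04 and 0.28 in CD. Rpl38, the gene called, had 187, 474, 231, 307 and 145 CPM in the CD libraries and 138, 143, 140.1, 92.3 and 78.8 CPM in the HFD libraries (log2 fold change -1.18, standard error 0.32, adjusted p = 0.0468), and when 1 library was left out it was called only without CD11. Without HFD13, HFD14 and CD11, the libraries numbered above 10 in the labels, the median was -0.08. Of the list 6 were then called higher and 1 lower, beside 1372 and 1403 of all 11925 genes in that fit. The stress genes under ATF4 had a median of -0.01, and 1 of 28 was called lower (3.57%, near the 3.06% of all genes) and 0 higher. This was Atf5, which had 30.9, 84.7, 47.8, 43.2 and 17.3 CPM in the CD libraries and 13.6, 15.7, 10.6, 11.7 and 8.41 CPM in the HFD libraries (log2 fold change -1.88, standard error 0.36, adjusted p = 0.0189). Bcl2l2, an inhibitor of apoptosis, went from 55.3 ± 29.5 CPM in CD to 22.3 ± 3.09 CPM in HFD (log2 fold change -1.31, standard error 0.31, adjusted p = 0.0319), and Adamts9, a protease of the matrix, from 129.7 ± 44.6 CPM in CD to 49.9 ± 26.7 CPM in HFD (log2 fold change -1.37, standard error 0.35, adjusted p = 0.0401). Bcl2l2 shares 4794 bases with Gm20521 on the same strand (log2 fold change -1.01). Adamts9 shares 30697 bases with A730049H05Rik on the other strand (log2 fold change -1.17). Atf5 lost its call without CD8, HFD3 or HFD5, Bcl2l2 kept it without CD1, CD2 or CD11 only, and Adamts9 without CD11 or HFD14 only.

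The diet effect at 4 weeks was set beside that at 16 weeks (6 CD and 7 HFD libraries, in a fit of 23 libraries with 4 groups). The 3 libraries labelled as low weight gainers on 16 weeks of HFD were left out. The 4-week labels do not divide mice by weight gain, so the HFD groups at the 2 times are not chosen alike. The difference of the effects was called for 448 of 12235 genes (3.66%). Of the 140 genes called higher at 4 weeks, 82 had a positive and 58 a negative log2 fold change at 16 weeks, with a median log2 fold change of 0.06, and the difference was called for 38. Of the 359 called lower, 207 had a negative and 152 a positive one, with a median of -0.19, and the difference was called for 100. These genes were chosen by the 4-week contrast, which is 1 side of the difference. Fshr had a log2 fold change of -0.75 at 16 weeks (standard error 0.43), a difference of -2.67 from 4 weeks (adjusted p = 0.0287). Vegfa had -0.13 at 16 weeks (standard error 0.26), a difference of 1.91 (adjusted p = 0.0199). Acrbp was called lower at 16 weeks too (log2 fold change -1.99, adjusted p = 0.0399), Lars2 had -1.43 there (adjusted p = 0.093), and their differences were not called (adjusted p = 0.68 and 0.661). At 16 weeks the median of the secretory list was 0.16, of the lysosome list -0.15, of fatty acid oxidation -0.18 and of the chromatin list 0.26, beside -0.01 over all genes. The number of genes whose effects differed ran from 69 without HFD5 to 1204 without CD11, with 112 without CD1, 96 without CD2, 86 without CD8, 116 without HFD3 and 94 without HFD4.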

How the data were processed

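The authors made Smart-seq2 libraries from oligo-dT primed cDNA with Nextera XT and deposited 1 table of read counts per gene and library, with no normalization. The submitters' processing notes name Trim Galore 0.4.2, HISAT2 2.0.5 and GRCm38; the counting program is not given in the sources used here. The kit marks neither strand nor molecules, so the limit that a count of 0 allows covers counting error only. The table held 25965 entries, and those sharing a symbol were kept apart. Of the 60 called genes named, 17 shared bases with another tested entry.

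The 10 libraries were fitted in R 4.3.3 with edgeR 4.0.16 (TMM, filterByExpr, robust quasi-likelihood F-test, two-sided, no covariate). Genes were called at a Benjamini-Hochberg adjusted p under 0.05. CPM were scaled by TMM. The interaction of diet and time used 23 libraries. The alternatives were DESeq2 1.42.0, limma-voom (limma 3.58.1) with sample quality weights, RLE, other filters, all 34 libraries, thinned counts, a minimum log2 fold change and each library left out. Offsets for GC content and length (GENCODE M21, 98.4% of genes matched by symbol) and a fit without the 3 libraries numbered above 10 were added after seeing the data. The script was tested on simulated data.

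The members and the 35 gene lists (29 of pathways, 6 of markers) were chosen with earlier results of these data known. The genes named were called, did not overlap between the groups, had at least 10 CPM on average and a symbol that is not provisional, and kept direction and an unadjusted p under 0.05 without HFD5. These are the 10 with the largest rise, the 10 with the largest fall and the 5 most abundant in each direction. From each list the called members (up to 6) or, with none called, the 2 with the lowest p were named, whatever their overlap; any other gene named was chosen after its values were seen, and some genes and sequences taken by these rules are not reported here. The p-values measure only the spread between these libraries, and no replicate pair of 20 was identical (lowest chi-square over its degrees of freedom 3.60).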

Additional observations from a re-analysis of the deposited data

Results flagged for a closer look

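Among 242 checks of a single library that stands far from its group of 5 (the gap to the nearest library over the whole range), 11 passed Dixon's critical value of 0.71, where chance alone gives about 1 in 20. Of these checks, 156 were of named genes on log2(CPM + 1), 68 of list levels, 12 of marker sums and 6 of library measures, with 5, 3, 3 and 0 passing. The summed oocyte markers were far higher in HFD5 than in the other HFD libraries (0.987). Rab5a (0.781) and Etfdh (0.814) were highest in HFD14 within HFD, and Hadhb was lowest in HFD13 (0.832). Within CD, Snap25 (0.778) and Adamts9 (0.732) were lowest in CD11, and the level of the lipid droplet and triglyceride list was highest there (0.739). Within HFD, the insulin list was highest in HFD13 (0.713) and the leptin receptor list lowest in HFD14 (0.76). The granulosa and cumulus markers summed to their highest in CD1 within CD (0.75), where Gja1 alone gave 5055 of the 6558 CPM. Red blood cell markers summed to their highest in CD8 (0.777), at 4.97 CPM.

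The diet effect differed between 16 and 4 weeks, by the interaction test of edgeR, for 20 of the 78 genes taken by the naming rule, of which 18 are given here. These genes were named for their values at 4 weeks, which are part of the difference. The difference, as the log2 fold change at 16 weeks minus that at 4 weeks, was positive for genes lower at 4 weeks. It was 3.22 for Phox2a, 2.98 for Eif4ebp3, 2.27 for Zfhx2 and 2.12 for Pabpc4. It was 1.91 for Vegfa, 1.83 for Adamts9, 1.75 for Zbed6, 1.33 for Mll1 and 2.53 for the 3′ entry of Atf7. It was negative for genes higher at 4 weeks, with -2.67 for Fshr, -2.19 for Hpgd, -2.04 for Abca6, -1.76 for Akr1c14 and -1.69 for Serp1. For Slc25a16 it was -1.62, for Dnajb9 -1.56, for Scarb2 -1.48 and for Arcn1 -1.38. Zbed6 was the only one of these called at 16 weeks in the direction opposite to that at 4 weeks (log2 fold change 0.80, standard error 0.23).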

How the results depend on the processing

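The number of genes called was 1291 in DESeq2 (520 higher and 771 lower), 4052 in limma-voom with sample quality weights (1939 and 2113), 69 with all 34 libraries in one fit (6 and 63), and 2775 without the 3 libraries numbered above 10 (1372 and 1403), beside 499 (140 and 359) in edgeR. The share of higher genes was 28.1% in edgeR, 40.3% in DESeq2, 47.9% in limma-voom, 8.7% with all 34 libraries and 49.4% without the 3 libraries. The cause of these differences was not tested. With 1 library left out at a time the number ran from 8 (without CD8) to 1700 (without CD11), with 0 to 751 higher and 8 to 949 lower, and it was 22 without HFD5. RLE size factors (498), no low-count filter (412), at least 10 counts in every library (484), counts thinned to the smallest library (434), the GC content and length offset (460) and an added minimum log2 fold change of 1 (439) stayed within 1.5 times of it. Of the 499, 497 were called in DESeq2 and in limma-voom, 495 with RLE, 347 with thinned counts and 69 with all 34 libraries. DESeq2 put the median change over all genes at -0.11 on the log2 scale, beside -0.01 in edgeR. The number of genes whose diet effect differed between times was 448 in edgeR, 1160 in DESeq2 and 2289 in limma-voom, and it ran from 69 to 1204 (without HFD5 and without CD11) over the fits that leave out 1 of the 4-week libraries. No named gene turned its direction under an alternative that fitted it (all 78, but 67 with at least 10 counts in every library and 75 with thinned counts). Of the 60 called, 3 were called in all 10 fits that leave out 1 library. No paired analysis was possible because the 4-week CD and HFD libraries share no replicate number. The smallest library held 1363065 counts, where a count of 0 allows up to 2.23 CPM. The offset and the fit without the 3 libraries were chosen after seeing the data.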

Other observations

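Genes of antioxidant defence and glutathione had a median log2 fold change of 0.14 over 45 tested. None was called by edgeR. At an unadjusted p under 0.05, 6 were higher and 0 lower, beside 10.9% and 13.4% of all genes. In limma-voom 15 were called higher and 1 lower, beside 1939 and 2113 of all 11727 genes. Prdx4, a peroxiredoxin of the ER, went from 94.3 ± 30.0 CPM in CD to 149 ± 20.4 CPM in HFD (log2 fold change 0.65, standard error 0.24, adjusted p = 0.118), and Prdx6, another peroxiredoxin, went from 123 ± 48.8 CPM in CD to 210.5 ± 37.4 CPM in HFD (log2 fold change 0.76, standard error 0.29, adjusted p = 0.122). The 11 mitochondrially encoded protein genes tested had a median of -0.08 with 0 called and 1 lower at an unadjusted p under 0.05. The level of that list ran from -2.04 in CD2 to 1.31 in CD8, both of which are CD libraries.

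Of 46 genes of mRNA decay, 0 were called by edgeR. DESeq2 called 1 higher and 1 lower, beside 520 and 771 of all 13230 genes. At an unadjusted p under 0.05, 5 were higher and 6 lower. Xrn1, the main cytoplasmic 5′ exonuclease, went from 20.7 ± 6.73 CPM in CD to 42 ± 17.8 CPM in HFD (log2 fold change 1.05, standard error 0.31, adjusted p = 0.0675). Zfp36, which binds AU-rich elements and brings mRNAs to decay, went from 74.1 ± 22.5 CPM in CD to 43.9 ± 6.84 CPM in HFD (log2 fold change -0.76, standard error 0.24, adjusted p = 0.0766). Of 19 circadian clock genes, 0 were called by edgeR, and 1 was higher and 1 lower at an unadjusted p under 0.05. In limma-voom 3 were called higher and 4 lower, beside 1939 and 2113 of all 11727 genes. The 2 at an unadjusted p under 0.05 were Bhlhe40, a repressor of the clock, at 0.72 on the log2 scale (adjusted p = 0.167), and Cry2 at -0.51 (adjusted p = 0.171). Of 30 genes of the extracellular matrix and its proteases, Adamts9, given above, was the only one called (3.33%, near the 3.06% of all genes called lower). At an unadjusted p under 0.05, 4 were higher and 5 lower, and the median was -0.05. Of the marker lists, macrophage and neutrophil genes had 14 tested with 0 called and a median of -0.15, and oviduct epithelium 3 tested with 0 called.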
